A study of Bubalus bubalis with 12 samples.

Results

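Gap junctions are channels through which neighbouring cells exchange ions and small metabolites, and each is built from connexin proteins of both cells. Pannexins form related channels that open to the outside of the cell and release ATP. In stratified squamous epithelia such as that of the rumen, gap junctions couple the cell layers into a functional unit, and Cx43, the product of GJA1, is a main connexin of such layers. The genes described are the connexins GJA1, GJB2, GJB5, GJB6 and GJC1 together with the pannexin PANX1, taken as the rows of the expression table whose gene name equalled one of these symbols. All 6 were found, each as 1 row, among 34037 genes.

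Ruminal wall was collected at slaughter from Italian Mediterranean dairy buffaloes (Bubalus bubalis) with a mean age of 8.2 years. The control group of 6 animals was fed a total mixed ration (TMR), and the treated group of 6 animals was fed TMR in which green ryegrass made up 30% of the diet. The trial ran for 60 days after 14 days of adaptation. Stranded total RNA libraries were made from frozen tissue, 1 per animal without pooling, and the question was whether green forage alters gene expression in the ruminal wall.

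Expression was given as FPKM, the fragments counted on a gene scaled by gene length and by the total number of fragments counted in that animal, so that levels of different genes can be set beside each other. Between 10531541 and 12948372 fragments were counted per animal. Reads worked out from the FPKM steps are given as the depth behind each level, and the precision they set covers counting error only. In the 66 pairs of libraries the chi-square per gene was between 18.6 and 136, so that no library repeated another within sampling noise. In bulk tissue, a smaller number of cells of a type and less RNA per cell cannot be told apart.

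Markers of squamous epithelium were far more abundant than those of other cell types. Of 27 such markers, 24 were in the table, and KRT13, a keratin of internal stratified epithelia, was the most abundant with a mean of 1572 FPKM. KRT1, a keratin of dry epidermis, was at 0 in all 12 animals. The tested markers of this list summed to 7523 ± 1574 FPKM (SD, n = 6) in control and 7860 ± 1600 FPKM in treated animals. Fibroblast markers summed to 166 ± 99.7 FPKM and 117 ± 76.2 FPKM, and the most abundant was the collagen gene COL3A1 with a mean of 32.1 FPKM. Smooth muscle markers summed to 47.5 ± 10.7 FPKM and 34.3 ± 11.3 FPKM, with SMTN as the most abundant at 13.5 FPKM. Endothelium was represented by PECAM1 at 7.55 FPKM, leukocytes by CD14 at 21.2 FPKM and glia by S100B at 6.63 FPKM, while the glial regulator SOX10 was at 0 in all animals. Among these lists epithelial RNA thus stood far above that of stroma, muscle and immune cells.

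The 6 genes lay at very different levels, and the connexin RNA came almost entirely from GJA1 and GJB2. Over the 12 animals the mean level was 1534 FPKM for GJA1, 411 FPKM for GJB2, 5.24 FPKM for GJB6, 4.98 FPKM for PANX1, 0.485 FPKM for GJB5 and 0.309 FPKM for GJC1. GJA1 held rank 57 among all genes by its mean, among keratin and ribosomal protein genes, and took from 0.340% to 0.597% of all counted fragments in an animal. GJB2 held rank 188. Of the summed FPKM of all connexins in an animal, GJA1 made up between 66.1% and 88.3%, and GJB2 between 11.4% and 33.5%. The lowest joint share of both in an animal was 99.4%.

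The order of the levels was the same in each of the 12 animals at its 3 large steps. GJA1 was above GJB2 in 12 of 12 animals, by a geometric mean of 3.85-fold and a range of 1.98-fold to 7.75-fold. GJB2 was above GJB6 in 12 of 12 animals, by 87.2-fold (range 44.3-fold to 196-fold). PANX1 was above GJB5 in 12 of 12 animals, by 12.1-fold. The other neighbours in the order did not differ beyond their spread. GJB6 was above PANX1 in 5 of 12 animals, and GJB5 was above GJC1 in 8 of 12 animals with ratios between 0.322 and 6.71.

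**Figure D1:**
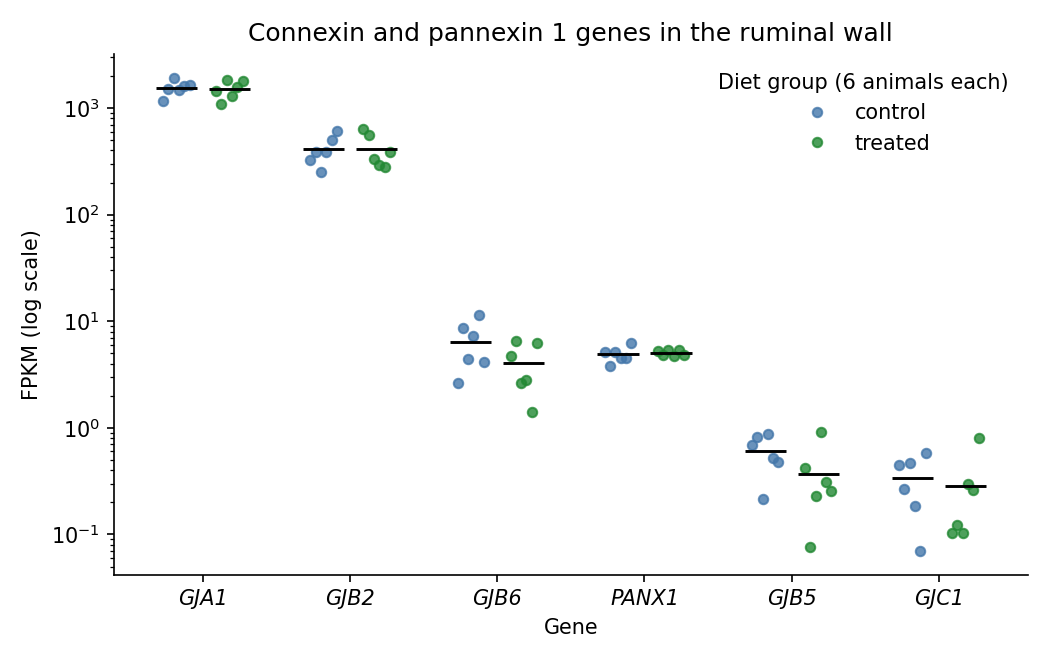
FPKM of the 5 connexin genes and PANX1 on a log axis, with 1 point per animal, control and treated buffaloes side by side, and a bar at each group mean. GJA1 (mean 1534 FPKM) and GJB2 (mean 411 FPKM) lie far above the other genes, and the points of both diets overlap for each gene.

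Across the whole transcriptome the diets differed little against the spread between animals. In limma, 0 of the 12642 genes that passed the filter on low values had an adjusted p-value below 0.05 (0.0%), and 157 (1.24%) had an unadjusted p-value below 0.05. With limma voom on the reads these counts were 0 and 144, and with the exact rank-sum test 0 and 182. The unadjusted count was 301 with a filter of 0.1 FPKM in 6 animals, 322 with a block for the animal number and 325 without treated 6. After adjustment each of these counts was 0. The main share of 1.24% was below the share that a threshold of 0.05 gives without any difference, and the reason was not tested. Of the 6 genes described, 5 passed the filter and GJB5 did not. None of the 5 had an unadjusted limma p-value below 0.05, and each had an adjusted p-value of 0.9997. GJB5 was fitted among all 22972 genes above 0, of which 0 (0.0%) had an adjusted and 562 (2.45%) an unadjusted p-value below 0.05, and it was not among them. Groups that did not overlap were found for 7 of 12642 genes (0.0554%) and for none of the 6 described here.

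GJA1, the main gap junction gene of this tissue, had nearly equal levels under both diets. It ranged from 1171 FPKM over a median of 1559 to 1929 FPKM in control animals, and from 1099 over 1521 to 1839 FPKM in treated animals. The groups overlapped over almost their whole range, with control 3 the highest and treated 2 the lowest animal. The mean was 1556 ± 248 FPKM in control and 1513 ± 283 FPKM in treated animals (SD, 6 animals each). The log2 fold change of treated over control was -0.047 (SE 0.16, 95% interval -0.40 to 0.30), with p = 0.762 in the two-sided exact permutation test. As a fold this interval runs from 0.760 to 1.23, so that a larger shift of the mean in either direction lay outside it. Its sign changed when control 3 (0.018) or treated 2 (0.041) was left out. The level rested on 40964 to 77305 reads per animal, and its coefficient of variation over the animals was 16.6%, against 0.417% from counting alone.

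GJB2 encodes Cx26, a connexin of keratinocytes and of the inner ear. Its level ranged from 249 over a median of 385 to 608 FPKM in control and from 278 over 360.1 to 631 FPKM in treated animals. The groups overlapped, with treated 1 and control 6 the highest and control 3 the lowest. The mean was 410 ± 129 FPKM in control and 413 ± 147 FPKM in treated animals (SD, 6 animals each), and the log2 fold change was -0.0011 (SE 0.25, 95% interval -0.53 to 0.53, p = 0.998 in the exact permutation test). The animals varied more in GJB2 than in GJA1, with a coefficient of variation of 32.1%, although 6267 to 14681 reads per animal left a counting error of 1.02%. Leaving out treated 1 moved the log2 fold change to -0.14, and leaving out control 6 moved it to 0.12. It was also positive, between 0.0013 and 0.099, without control 5, treated 3, treated 4, treated 5 or treated 6, so that its sign carried no information. With the smooth muscle score as a covariate it was -0.36.

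The ratio of these major connexins varied between animals more than between diets. GJA1 made up 78.8 ± 5.24% of the connexin FPKM in control and 78.1 ± 8.12% in treated animals (SD, n = 6 each). The lowest GJA1 to GJB2 ratio was 1.98 and the highest 7.75. Levels of the other connexins were too low to alter these shares, and GJB6 reached at most 0.535% of the connexin FPKM.

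GJB6 encodes Cx30, which can join Cx26 in mixed channels of the epidermis and cochlea. In the NDDB_SH_1 assembly of the buffalo genome GJA3, GJB2 and GJB6 lie next to each other in this order, and GJA3 was at 0 in all 12 animals. GJB6 ranged from 2.62 over a median of 5.87 to 11.4 FPKM in control and from 1.41 over 3.76 to 6.55 FPKM in treated animals. The highest 3 animals were control 5, control 2 and control 4, the lowest was treated 5, and the groups overlapped. The mean was 6.43 ± 3.30 FPKM in control and 4.05 ± 2.10 FPKM in treated animals (SD, 6 animals each). The log2 fold change was -0.69 (SE 0.42, 95% interval -1.58 to 0.21, p = 0.171 in the exact permutation test), which did not exceed the spread between animals. With a score of smooth muscle markers as a covariate it was -1.41. Without treated 5 it was -0.42. From 34 to 286 reads were counted per animal, and the highest and lowest animals differed 8.13-fold. The counting error was 8.77% at the mean read number and larger in the animals with fewer reads.

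The level of GJB6 was also set against that of its neighbour GJB2 within each animal, since such a ratio does not depend on the scaling of the library. The log2 ratio of GJB6 over GJB2 was -6.10 ± 0.77 in control and -6.79 ± 0.57 in treated animals (SD, n = 6 each). The difference of -0.69 had p = 0.108 in the two-sided exact permutation test. Leaving out control 6 moved it to -0.90 with an exact permutation p of 0.0368, and the p-value was above 0.05 when any other animal was left out.

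GJB5 encodes Cx31.1, a connexin of the upper epidermis. In control animals GJB5 ranged from 0.214 over a median of 0.612 to 0.873 FPKM, and in treated animals from 0.0766 over 0.283 to 0.918 FPKM. The groups overlapped, and the highest animal, treated 4, and the lowest, treated 2, were both in the treated group. The mean was 0.601 ± 0.244 FPKM in control and 0.369 ± 0.292 FPKM in treated animals (SD, 6 animals each). The log2 fold change was -0.90 (SE 0.55, 95% interval -2.09 to 0.29), with an exact permutation p of 0.128. Leaving out treated 4 gave -1.23 and an exact permutation p of 0.0303, and leaving out control 3 gave -1.17 and 0.0498. Without treated 2 the log2 fold change was -0.55. Only 2 to 24 reads were counted per animal, and the 2 reads of treated 2 were below the floor of 3 reads, so that the level of this animal could not be told from 0. The fold change depended on the pseudocount, at -0.69 with 0.1 FPKM added and -0.24 with 1 FPKM added. The counting error was 28.0% at the mean read number, against a coefficient of variation of 58.5% over the animals, and the difference did not exceed the spread between animals.

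GJC1 encodes Cx45, a connexin of smooth muscle, pericytes and the conduction system of the heart. It was the lowest of the 6 genes and had the widest spread, with a coefficient of variation of 73.5%. It ranged from 0.0701 over a median of 0.359 to 0.583 FPKM in control and from 0.102 over 0.191 to 0.810 FPKM in treated animals. The groups overlapped, treated 6 was the highest animal, and control 5 the lowest. The mean was 0.336 ± 0.194 FPKM in control and 0.282 ± 0.272 FPKM in treated animals (SD, 6 animals each). The log2 fold change was -0.38 (SE 0.61, 95% interval -1.70 to 0.93, p = 0.550 in the exact permutation test). With 1 animal left out it lay between -0.77 (without treated 6) and -0.18 (without control 6). It was -0.071 with a pseudocount of 1 FPKM, and the group medians differed by -0.92. From 7 to 84 reads per animal gave a counting error of 18.1% at the mean read number. The log2 ratio of GJC1 over GJA1 was -12.39 ± 1.11 in control and -12.73 ± 1.07 in treated animals, a difference of -0.34 (exact permutation p = 0.597, n = 6 each).

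The summed levels of smooth muscle and fibroblast markers given above had lower means in treated animals as well. All 10 tested of the 14 smooth muscle markers had a negative log2 fold change, with a median of -0.71, and 1 of them, the intermediate filament gene DES, had an unadjusted limma p-value below 0.05, against 1.24% of all tested genes. The contractile genes ACTG2 and CNN1 did not pass the filter. Their means were 0.851 and 1.17 FPKM in control and 0.307 and 0.400 FPKM in treated animals, and each had p = 0.0238 in the exact permutation test. LMOD1 and MYOCD also failed the filter, with means of 0.555 and 0.1405 FPKM in control and 0.345 and 0.0952 FPKM in treated animals. Their p-values in the same test were 0.271 and 0.193. None of these p-values was adjusted, and the share of all genes below 0.05 in this test was not counted. All 14 fibroblast markers had a negative log2 fold change, with a median of -0.59, and 1, the proteoglycan gene PODN, had an unadjusted p-value below 0.05. The median log2 fold change of all tested genes was 0.0053, and no marker of either list had an adjusted limma p-value below 0.05. With the smooth muscle score as a covariate the log2 fold change of GJC1 was 0.37, opposite in sign to that without it.

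PANX1 forms the ATP release channel that is found in many tissues. It was the steadiest of the 6 genes, ranging from 3.81 over a median of 4.83 to 6.22 FPKM in control and from 4.75 over 5.03 to 5.35 FPKM in treated animals. The treated animals lay wholly within the range of the control animals, whose highest was control 6 and lowest control 2. The mean was 4.90 ± 0.816 FPKM in control and 5.06 ± 0.282 FPKM in treated animals (SD, 6 animals each). The log2 fold change was 0.059 (SE 0.13, 95% interval -0.23 to 0.35, p = 0.600 in the exact permutation test). It was -0.011 without control 2, 0.13 without control 6 and 0.14 with the smooth muscle score as a covariate. From 288 to 420 reads were counted per animal. The SD within groups was 0.18 on the log2 scale, and 9.14% of the tested genes had a smaller one. For GJC1 the same SD was 1.10, and the median of all tested genes was 0.36.

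**Figure D2:**
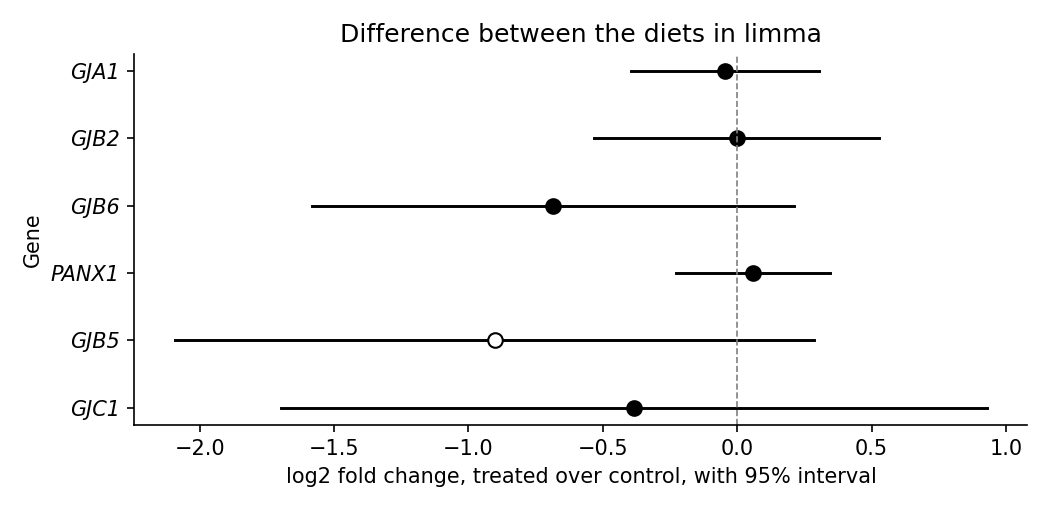
Log2 fold change of treated over control animals in limma, with its 95% interval, for each of the 6 genes (6 animals per diet). The filled points were fitted among 12642 genes and the open point, GJB5, among 22972 genes. Each interval includes 0, and the intervals widen from PANX1 (-0.23 to 0.35) to GJC1 (-1.70 to 0.93).

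The remaining connexins and pannexins were scarce or undetected. Of 18 other genes of these families in the table, 10 were at 0 in all 12 animals, among them GJB1, the main connexin of liver, and PANX3. Among the 8 above 0, GJA9, GJA10 and GJA4 had means of 0.168, 0.149 and 0.144 FPKM. GJA10 passed the filter only through treated 2, which had 45 reads, while no other animal had more than 25.

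Proteins that bind connexins or act on them were for the most part well expressed, with close means under both diets. The list held 26 genes, STAMBP also under its alias AMSH, all of which were in the table. Of these 25 were tested, and 0 had an adjusted or an unadjusted limma p-value below 0.05. Their log2 fold changes, 15 positive and 10 negative, lay between -0.20 and 0.19 with a median of 0.0068, against 0.0053 over all tested genes. The most abundant were the adherens junction genes CTNNB1, with 187 ± 12.9 FPKM in control and 188 ± 27.3 FPKM in treated animals, and CDH1, with a mean of 89.4 FPKM. EZR, which links membrane proteins to actin, followed with 88.4 FPKM.

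The genes of ATP release and purinergic signalling, through which ATP released by pannexin channels acts, were mostly low. Of 35 listed genes 33 were in the table and 15 were tested, and 0 had an adjusted or an unadjusted limma p-value below 0.05. Of these 15, 7 had a positive and 8 a negative log2 fold change, between -0.71 and 0.31. The highest levels were those of nucleotide-degrading enzymes, ENTPD5 with a mean of 103 FPKM and NT5E, which forms adenosine outside the cell, with 102 ± 12.5 FPKM in control and 91.7 ± 19.6 FPKM in treated buffaloes (SD over 6 animals each). The receptors P2RX2, P2RX6, P2RY4 and ADORA1 and the channel genes CALHM1 and CALHM4 were at 0 in all animals.

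The genes whose levels over the 12 animals were most like those of each connexin differed from gene to gene. The likeness was measured by Pearson's r of log2 FPKM, as the highest 3 among 12642 genes, so that high values arise by selection and carry no test. GJA1 was most like TP53INP1 (r = 0.88), COG6 (0.88) and C4H12orf73 (0.84), and GJB2 most like IL22RA1 (0.92), ATP6V0A1 (0.91) and MYCBP2 (0.91). GJB6 was most like RPN2 (0.85), P4HB (0.82) and CYSRT1 (0.81), of which RPN2 and P4HB act on new proteins in the endoplasmic reticulum. For GJB5 the genes were C2H6orf47 (0.87), GALNT6 (0.84) and PIGB (0.84). GJC1 was most like KIT (0.94), ZBTB20 (0.93) and ANTXR1 (0.92), and KIT is a receptor of pacemaker and mast cells that was expressed at a mean of 1.71 FPKM. Within each diet group r was at least 0.72 for the genes named with these 5 connexins, which follows in part from their selection over the same animals. PANX1 was most like EPS8 (0.86), LOC102394761 (0.83) and HAPLN1 (0.83). For these genes r was 0.95, 0.99 and 0.94 in control animals and 0.15, 0.34 and 0.55 in treated animals.

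The 6 genes were also set against scores of squamous epithelium, smooth muscle and fibroblast markers, the mean log2 FPKM of each list. In none of the 18 relations was the p-value of r or rho below 0.05 after Benjamini-Hochberg adjustment. The lowest adjusted p-values of r belonged to GJC1. With the fibroblast score it had r = 0.69 (permutation p = 0.0124, adjusted 0.111) and rho = 0.73 (permutation p = 0.00861, adjusted 0.137), and r was 0.62 without the 2 animals farthest from the median score, 0.56 within control and 0.78 within treated animals. With the epithelial score GJC1 had r = -0.70 (permutation p = 0.0101, adjusted 0.111) and rho = -0.60 (permutation p = 0.0424, adjusted 0.207), and r was -0.45 without control 6 and treated 6, -0.63 within control and -0.74 within treated animals. With the smooth muscle score it had r = 0.59 (permutation p = 0.0436, adjusted 0.196) and rho = 0.52 (permutation p = 0.0881, adjusted 0.227), and r was 0.47 without control 1 and treated 1, 0.86 within control and 0.40 within treated animals. GJC1 thus tended to be higher in animals with more stromal and less epithelial marker RNA, in both diet groups, but not beyond the correction. The scores were themselves related, so that these relations of GJC1 are not independent of each other. Between smooth muscle and fibroblast scores r was 0.83, between epithelial and fibroblast scores -0.67, and between epithelial and smooth muscle scores -0.52.

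The relations of GJA1, GJB2 and PANX1 with the epithelial score also missed the threshold after adjustment. GJA1 had r = -0.47 (permutation p = 0.118, adjusted 0.303) and rho = -0.69 (permutation p = 0.0152, adjusted 0.137), with r of -0.41 without the 2 outermost animals, -0.30 within control and -0.59 within treated animals. GJB2 had r = 0.15 (permutation p = 0.648, adjusted 0.721) and rho = 0.31 (permutation p = 0.329, adjusted 0.473). Its r was 0.83 without control 6 and treated 6, which had the lowest epithelial scores, so that r depended on those animals, and it was -0.43 within control and 0.64 within treated animals. PANX1 had r = -0.50 (permutation p = 0.0970, adjusted 0.291) and rho = -0.55 (permutation p = 0.0690, adjusted 0.207) with the epithelial score, and r was -0.25 without control 6 and treated 6, -0.87 within control and 0.062 within treated animals. With the fibroblast score GJB2 had r = -0.60 (permutation p = 0.0386, adjusted 0.196) and rho = -0.55 (permutation p = 0.0660, adjusted 0.207). Its r was -0.22 without treated 1 and treated 2, was -0.29 within control and -0.87 within treated animals, and so rested on these treated animals. With the smooth muscle score GJB2 had r = -0.55 (permutation p = 0.0662, adjusted 0.238) and rho = -0.56 (permutation p = 0.0627, adjusted 0.207), and r was -0.35 without control 1 and treated 1, -0.26 within control and -0.93 within treated animals. GJB6 had r = -0.36 (permutation p = 0.248, adjusted 0.452) and rho = -0.45 (permutation p = 0.145, adjusted 0.290) with the smooth muscle score. Its r was -0.35 without control 1 and treated 1, -0.90 within control and -0.66 within treated animals, so that the relation was closer within each diet than over all animals, a difference that was not tested.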

How the data were processed

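Reads had been trimmed by the authors (Trimmomatic 0.39), mapped on the UOA_WB_1 assembly (STAR 2.5.2b) and counted on their strand for each gene (featureCounts 2.0.0, mapping quality of 30 or more). They deposited FPKM values, whose tool is not given in the sources used here. Of 16 columns, 12 were matched to animals by their labels, and 4 were not used. Reads were worked out from the FPKM steps: within 0.01 reads, 100.0% of the values of 22972 genes were whole. The 12642 genes with at least about 42 TMM-scaled reads in at least 1 animal, the study's filter, were tested with limma 3.58.1 (R 4.3.3; eBayes with trend) on log2(FPKM + 0.01), and p-values were adjusted over this whole set by the Benjamini-Hochberg method. A fold change on this scale understates the change of low genes. Single values were tested with the two-sided exact permutation test over 924 assignments (smallest p 0.00216), and correlations with 100000 permutations, with Python 3.11.15, numpy 2.4.6 and scipy 1.17.1. Methods were tested on simulated data. All 6 genes matched the reference table of NDDB_SH_1 by gene identifier. Genes were named by rule: the 6 genes, the 4 highest other connexins, the 3 most alike per gene, the 3 highest and all nominal genes of the listed partners and purinergic genes, and the highest marker per cell type. Some genes that this rule names are not reported here. Genes at 0, GJA3, DES, PODN, ACTG2, CNN1, LMOD1 and MYOCD were added after their values were seen. The genes described and the lists were chosen with earlier results of these data known. Alternatives were pseudocounts of 0.1 and 1, other filters, TMM and median ratio scaling, robust empirical Bayes, voom, rank-sum tests, a replicate block, a smooth muscle covariate and each animal left out.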

Additional observations from a re-analysis of the deposited data

Results flagged for a closer look

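The GJC1 level of treated 6 stood apart from the other treated animals on the FPKM scale. It was 0.810 FPKM, from 84 reads, and its gap to the nearest treated animal took up 0.728 of the range of the group, above Dixon's critical value for 6 samples. On the log2 scale the gap took up 0.497 of the range, below that value. The same animal had a fibroblast marker sum of 213 FPKM, the highest of the treated group, and a squamous epithelium sum of 5932 FPKM, the lowest of that group. Its smooth muscle marker sum was 23.5 FPKM, the lowest of all 12 animals. By the mean log2 FPKM of the markers, however, treated 4 was higher for fibroblasts (3.15 against 2.78), and treated 1 (0.014) and treated 2 (0.32) were lower than treated 6 (0.72) for smooth muscle. Chance marks about 1 in 20 groups in this way, and 16 groups were examined.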

How the results depend on the processing

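No gene of the 6 had an adjusted limma p-value below 0.05 in any alternative run, the lowest being 0.893 for GJB5 without treated 6. Genes with an unadjusted limma p-value below 0.05 numbered 301 of 16450 with a filter of 0.1 FPKM in 6 animals. With no filter they numbered 562 of 22972 (2.45%), against 157 of 12642 (1.24%) in the main fit. The share thus rose along with the number of genes tested, and the cause was not tested. With 1 animal left out the count lay between 142 and 325 (325 without treated 6, cause not tested). Same-numbered animals of both diets are different animals, and the columns of the table number some of them differently from the labels. Their deviations correlated between -0.0134 and 0.416 (mean 0.213, against -0.039 for other numbers). Not every pair was clearly above 0, and the numbers were not taken as pairing the animals in the main fit. Whether same-numbered animals shared a step of handling was not tested. With the replicate block 322 genes had an unadjusted and 0 an adjusted p-value below 0.05, and 8 of 12 animals correlated best with their own number. With 1 animal left out the log2 fold change lay between -0.13 and 0.041 for GJA1, -0.14 and 0.12 for GJB2, -1.23 and -0.55 for GJB5, -0.91 and -0.42 for GJB6, -0.77 and -0.18 for GJC1, and -0.011 and 0.13 for PANX1. GJC1 changed sign to 0.37 with the smooth muscle covariate (the cause was not tested). The log2 ratio of GJB6 over GJB2 lay between -0.90 and -0.52 with 1 animal left out (lowest exact permutation p 0.0368, without control 6), and that of GJC1 over GJA1 between -0.72 and -0.083. Other alternatives kept direction and side of the threshold for these genes and ratios. Depth was lowest for GJB5 and GJC1, whose reads fell to 2 and 7 in an animal. Their spread over the animals was 58.5% and 73.5%, and the counting error at the mean read number was 28.0% and 18.1%. That error is larger in animals with fewer reads. A spread between separate animals above it does not show that the depth was sufficient.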
